A study of Homo sapiens with 6 samples.

Results

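Leukocytes hold on to vessel walls and to each other through a small set of surface proteins, and 9 of the genes that encode them were followed here in SKM-1 cells: SELPLG, CD44, PECAM1 and the integrin genes ITGB2, ITGAL, ITGAM, ITGAX, ITGA4 and ITGA5. They were chosen by gene symbol, and all 9 were found among the 26704 genes of the deposited tables. The set holds a selectin ligand and integrins but no selectin gene itself. SKM-1 is a human cell line of acute myeloid leukaemia. RNA of its cells was sequenced in 6 libraries, with 2 untreated, 2 given BOR, 1 given VEM and 1 given VEM+BOR. VEM stands for vemurafenib, which inhibits RAF kinases, and the labels do not spell out BOR, nor any dose or time. Separate cultures are not stated for the libraries of a group, so p-values measure a spread that may be technical.

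Integrins are heterodimers of an alpha and a beta chain. The beta 2 chain (ITGB2, CD18) pairs with the alpha chains of LFA-1 (ITGAL), Mac-1 (ITGAM, CD11b) and p150,95 (ITGAX, CD11c), which bind ICAM molecules, complement fragments and fibrinogen. The alpha 4 and alpha 5 chains (ITGA4, ITGA5) pair with beta 1 and bind VCAM-1 and fibronectin, and in bone marrow they anchor progenitors to stroma. SELPLG encodes PSGL-1, on which leukocytes roll before integrins arrest them, CD44 is the hyaluronan receptor, and PECAM1 (CD31) takes part in the passage between endothelial cells. CD11b and CD11c are in common use as markers of myeloid maturation.

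ITGAM and CD44 were both higher in the VEM and VEM+BOR libraries than in either untreated library, and their promoters are shown for that reason, from RefSeq on GRCh38.p14. Each runs 5′ to 3′ from 250 bases before the annotated start to 50 bases after it, on the plus strand, at chr16:31259725-31260024 and chr11:35138921-35139220. Capitals mark GAGGAA, the core of sites bound by the myeloid factor PU.1, and GGGCGG, the SP1 core, each on either strand and without overlap.
ITGAM: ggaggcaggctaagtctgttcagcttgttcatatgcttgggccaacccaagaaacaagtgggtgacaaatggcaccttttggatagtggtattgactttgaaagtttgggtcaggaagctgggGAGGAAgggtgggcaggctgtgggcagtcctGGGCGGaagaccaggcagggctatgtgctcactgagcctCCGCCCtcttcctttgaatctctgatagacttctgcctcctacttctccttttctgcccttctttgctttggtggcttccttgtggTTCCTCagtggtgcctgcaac
CD44: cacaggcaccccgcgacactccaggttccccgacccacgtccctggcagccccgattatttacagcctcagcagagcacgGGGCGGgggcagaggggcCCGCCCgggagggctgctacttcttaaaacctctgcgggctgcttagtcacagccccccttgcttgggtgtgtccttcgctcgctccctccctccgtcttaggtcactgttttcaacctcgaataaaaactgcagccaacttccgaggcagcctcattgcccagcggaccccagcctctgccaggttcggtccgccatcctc
The ITGAM window held GAGGAA 2 times and GGGCGG 2 times, and the CD44 window held GGGCGG 2 times and no GAGGAA. Of 35116 RefSeq windows of this length, 27.9% held GAGGAA and 45% held GGGCGG, so neither match is rare. The ITGAM window also held TGTGGT, the RUNX core, which 13.1% of windows held. TGANTCA, the AP-1 core, was in neither and in 7.71% of all. Windows were found for 4 of the 9 genes, the other two being ITGA4 and ITGA5, and SELPLG, ITGAX, ITGAL, ITGB2 and PECAM1 had none in the table.

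Depth was alike, at 17252404 to 18507606 reads assigned to genes per library. BOR 2 stood apart: across 15462 genes, which are not independent replicates, its log2 values correlated at 0.861 to 0.880 with the other 5 libraries. Mitochondrial transcripts made up 3.14% of its reads and 4.23% to 5.40% elsewhere, and its size factor was 0.740 against 1.02 to 1.13, so its normalised values are scaled up more than those of the others. Myeloid markers CD33, ANPEP, MPO, SPI1, CEBPA and CSF3R were at 806 or more normalised reads in every library, while LYZ lay between 9.81 and 144. PTPRC, the pan-leukocyte CD45 gene, was 269 in BOR 2 and 2919 to 4575 elsewhere. The T cell genes CD3D, CD3E, CD3G, CD8A and CD2, the B cell gene MS4A1 and the megakaryocyte genes PF4, PPBP, GP9 and GP1BB were not among the genes found in all 3 tables. Below, a level is a size-factor normalised read count with all 6 libraries brought to 1 scale. A change is a log2 difference of value + 1, fitted with limma within 1 deposited table, which understates changes of low genes. Adjusted p-values are Benjamini-Hochberg values over all genes tested in that table.

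In untreated cells the 9 genes spanned a wide range when set per kilobase of exons. ITGB2 stood at 586 ± 47.8 normalised reads per kilobase (SD, n = 2) and CD44 at 490 ± 98.1, with overlapping libraries. ITGA5 followed at 258 ± 45.3, ITGA4 at 164 ± 38.7 and ITGAX at 134 ± 90.1 on the same scale. ITGAL at 75.2 ± 11.6 and ITGAM at 64.3 ± 36.4 could not be ordered, since their libraries overlapped, and the same held for ITGA4 against ITGAX. ITGAX and ITGAL overlapped across libraries, but ITGAX was higher within each, at 198 against 83.4 in untreated 1 and 70.3 against 67.0 in untreated 2. SELPLG, at 7.12 and 14.9 normalised reads per kilobase in the untreated libraries, and PECAM1, at 2.27 ± 1.96, were lowest, each below the neighbour above it in both libraries. So the integrin and CD44 transcripts were present in number, and the PSGL-1 and CD31 transcripts were scarce. RNA came from whole cultures, so fewer cells with a transcript and less of it per cell cannot be told apart.

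**Figure D1:**
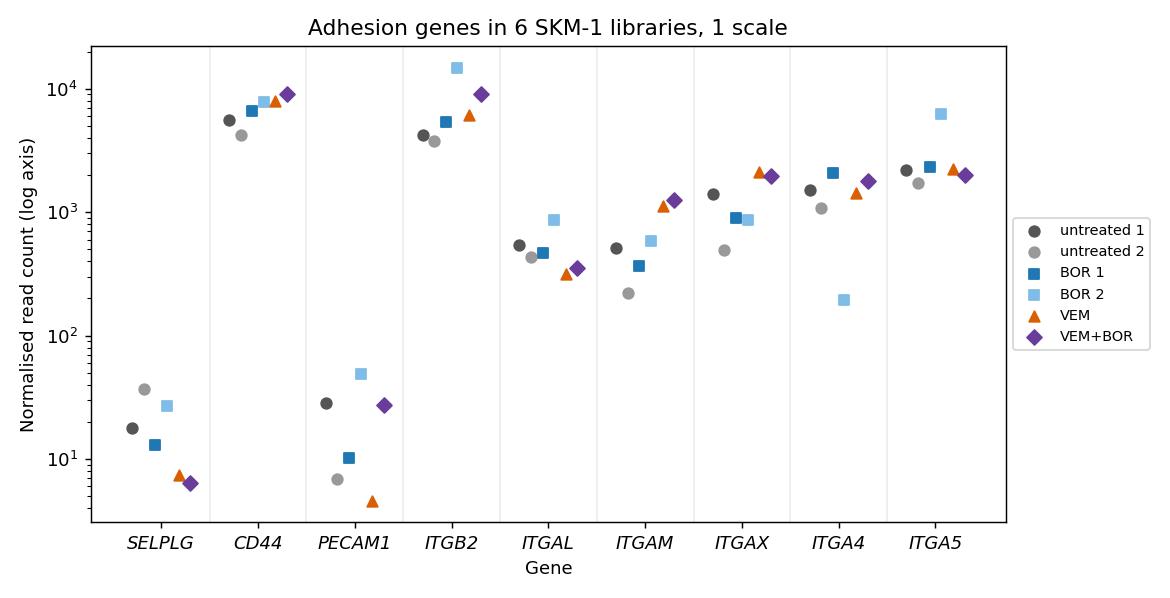
Normalised read count (log axis) of each of the 9 genes in each of the 6 libraries, 1 symbol per library. ITGAM at 1127 and 1249 in VEM and VEM+BOR lies above the other 4 libraries, and ITGA4 at 196 in BOR 2 lies far below the rest.

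The untreated libraries themselves differed, and not by the same amount for each gene. PECAM1 was 4.14 times, ITGAX 2.81 times and ITGAM 2.33 times as high in untreated 1 as in untreated 2. A larger absolute log2 difference between these libraries was seen in 2.07%, 4.38% and 7.47% of genes, respectively. SELPLG went the other way and was 2.10 times as high in untreated 2. ITGB2, at 1.12 times, and ITGAL, at 1.25 times, were the most even of the set. Any change in ITGAM, ITGAX, PECAM1 or SELPLG is therefore set against a wide untreated spread. The limma SEs in VEM and VEM+BOR reflect that spread only in part, since they lean mostly on a spread pooled over genes. In VEM the SE was 0.46 for ITGAM and 0.47 for ITGAX, near the 0.40 of ITGB2. With no filter on low values it was 0.71 and 0.85, against 0.23 for ITGB2.

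No member passed an adjusted p of 0.05 in limma in any comparison: 0 of 9 in BOR, where 0% of 15382 genes passed, 0 of 9 in VEM, where 0.0446% of 15689 passed, and 0 of 9 in VEM+BOR, where 0.192% of 15606 passed. At an unadjusted p under 0.05 the counts were 0, 2 and 5 of 9, against 0.247%, 2.54% and 3.01% of all genes. All 9 passed the filter on low values in each table. On recovered reads, edgeR called 0 of 9 in BOR, where 0% of 15517 genes passed. In VEM+BOR edgeR called 1 of 9, ITGAM, where 0.556% of 15658 passed. DESeq2 called 0 of 9 in BOR and in VEM+BOR, where 0.226% and 0.409% of genes passed. It gave SELPLG and PECAM1 no adjusted p in VEM+BOR, so neither could be called there. The VEM and VEM+BOR tests share their untreated libraries, have 1 treated library each and assume that it varies like the untreated pair.

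Per kilobase, the beta 2 chain gene was the most abundant member in every library. ITGB2 (ENSG00000160255, minus strand, chr21:44885953-44931989) was 4209 and 3750 in untreated cells, 5358 and 14854 in BOR, 6185 in VEM and 8995 in VEM+BOR. Every treated library lay above both untreated ones. The changes were 1.17 in BOR (SE 0.60, adjusted p = 0.968), 0.63 in VEM (SE 0.40, adjusted p = 1) and 1.17 in VEM+BOR (SE 0.41, adjusted p = 0.789). Without BOR 2 the BOR change was 0.44, and without BOR 1, which leaves BOR 2 alone, it was 1.90. With values scaled to the library total, a setting chosen after seeing the data, the VEM+BOR change was 1.15 and passed (adjusted p = 0.0487). In CPM, reads scaled to the library total, ITGB2 was 273 and 212 untreated, 327 and 594 in BOR, 389 in VEM and 535 in VEM+BOR, so that scale kept the same separation.

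ITGAM had the largest positive change of the set in VEM and in VEM+BOR, and it too missed the threshold. ITGAM (ENSG00000169896, plus strand, chr16:31259967-31332892) was 512 and 220 in untreated cells, 367 and 580 in BOR, 1127 in VEM and 1249 in VEM+BOR. The VEM level was 2.20 times and the VEM+BOR level 2.44 times the higher untreated library, while BOR 1 lay between the untreated libraries and BOR 2 was 1.13 times the higher of them. The change was 1.74 in VEM (SE 0.46, unadjusted p = 0.00117, adjusted p = 0.474) and 1.88 in VEM+BOR (SE 0.45, unadjusted p = 0.000434, adjusted p = 0.125). In BOR it was 0.46 (SE 0.60, adjusted p = 0.968). The VEM+BOR call depends on the method. It passed in edgeR (adjusted p = 0.00158), with TMM scaling (adjusted p = 0.0304), with library-total scaling (adjusted p = 0.00351) and in the joint fit without BOR 1 (adjusted p = 0.0478), and over its 11 alternatives the adjusted p ran from 0.00158 to 1. In VEM it passed in 1 of 9 alternatives, library-total scaling, at an adjusted p of 0.0238, the highest being 1. The authors' deposited table gives ITGAM a log2 fold change of 1.62 in VEM (adjusted p = 0.556) and 1.76 in VEM+BOR (adjusted p = 0.133). Against untreated 1 alone the VEM+BOR change was 1.28, and against untreated 2 alone it was 2.50. These fits took their residual spread from the BOR pair alone, and their SEs were 1.15 and 1.16. The highest adjusted p-values given above came from them, so they speak to the BOR pair and not to ITGAM in untreated cells. Myeloid markers were not level across the libraries. The granule gene MPO was 18695 and 15445 in untreated cells, 17239 and 41948 in BOR, 6551 in VEM and 4787 in VEM+BOR. CEBPA, a lineage factor gene, was 1875 and 2872 in untreated cells, 2396 and 2063 in BOR, 1253 in VEM and 1295 in VEM+BOR. Of the listed myeloid markers, only MPO and CEBPA lay below both untreated libraries in both VEM and VEM+BOR. ANPEP lay above both, at 1016 and 806 in untreated cells, 1029 in VEM and 1180 in VEM+BOR. SPI1, at 5440 in VEM and 6992 in VEM+BOR, stayed between its untreated values, as did CSF3R, at 4247 and 3839. The part of these markers in the ITGAM and ITGAX values was not tested.

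ITGAX begins 22241 bases beyond the end of ITGAM on the same strand. ITGAX (ENSG00000140678, chr16:31355134-31382997) was 1398 and 497 in untreated cells, 902 and 857 in BOR, 2115 in VEM and 1956 in VEM+BOR. The VEM-treated libraries lay above both untreated libraries, and the BOR libraries lay between them. Because the untreated pair was so far apart, VEM was only 1.51 times and VEM+BOR 1.40 times the higher of them. The change was 1.33 in VEM (SE 0.47, adjusted p = 1) and 1.22 in VEM+BOR (SE 0.46, adjusted p = 1). In BOR it was 0.08 (SE 0.60, adjusted p = 0.991). Against untreated 1 alone it was 0.60 in VEM and 0.48 in VEM+BOR, and against untreated 2 alone 2.09 and 1.97.

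ITGAL, which lies 736781 bases upstream of ITGAM, was lower, not higher, in the libraries with VEM. ITGAL (ENSG00000005844, plus strand, chr16:30472658-30523185) was 540 and 433 in untreated cells, 471 and 858 in BOR, 314 in VEM and 350.5 in VEM+BOR. Both VEM-treated libraries lay below both untreated libraries, and BOR 2 lay above all others. The change was -0.63 in VEM (SE 0.40, adjusted p = 1) and -0.48 in VEM+BOR (SE 0.40, adjusted p = 1). In BOR it was 0.40 (SE 0.52, adjusted p = 0.968), and without BOR 2 it was -0.03.

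ITGAL, ITGAM and ITGAX pair with the same beta 2 chain, so their reads were also set against each other within each library, which no scaling between libraries can alter. ITGAL made up 8.84% of the reads of these 3 genes in VEM (95% Wilson interval 7.98% to 9.78%, of 3858 reads) and 9.86% in VEM+BOR (8.96% to 10.8%, of 3875 reads). In the other 4 libraries it made up 22.0% to 37.7%, the lowest being untreated 1 (20.5% to 23.6%, of 2760 reads). ITGAM made up 31.7% in VEM (30.3% to 33.2%) and 35.1% in VEM+BOR (33.6% to 36.6%). Its share was 20.9% in untreated 1, 19.1% in untreated 2, 21.1% in BOR 1 and 25.3% in BOR 2. ITGAX held 55.0% to 59.5% in the VEM-treated libraries, a range that takes in untreated 1 at 57.1%. In BOR 2 the ITGAL share of 37.4% was like that of untreated 2 at 37.7%. The intervals cover counting error only, and with 1 library for each VEM group there is no replicate of these shares.

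**Figure D2:**
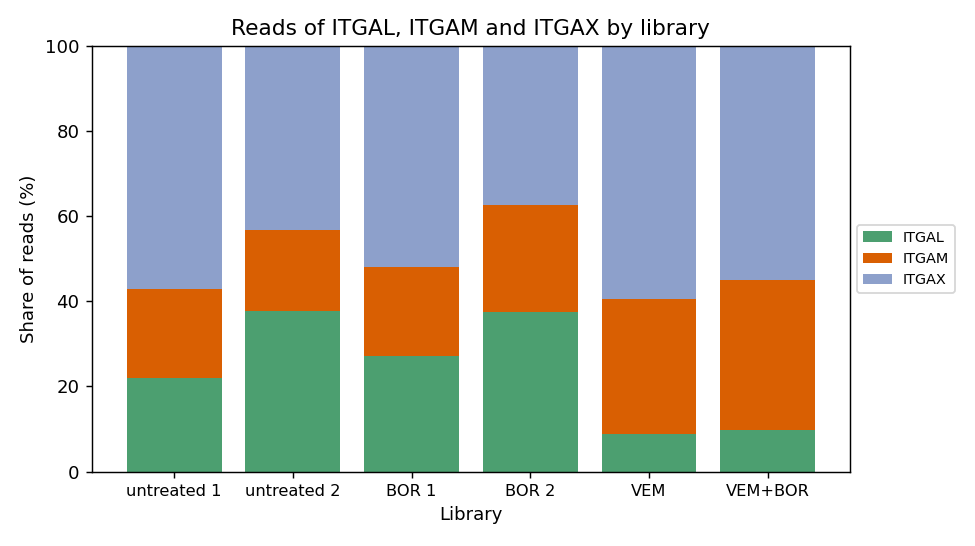
Stacked bars of the share of reads (%) that fell to ITGAL, ITGAM and ITGAX in each library, out of the reads of these 3 genes. ITGAL takes 8.84% and 9.86% in VEM and VEM+BOR against 22.0% to 37.7% elsewhere.

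Per kilobase, ITGB2 exceeded the sum of these alpha chains in every library. The ratio of ITGB2 to the sum was 1.67 and 3.14 in untreated cells, 2.98 and 6.14 in BOR, 1.67 in VEM and 2.41 in VEM+BOR. VEM lay at the lower end of the untreated values, level with untreated 1, and BOR 2 lay above all others. ITGAD, a further beta 2 partner beside ITGAX, was at 8.26 normalised reads or fewer in all libraries.

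The genes of the fibronectin and VCAM-1 receptors split in BOR 2. ITGA4 (ENSG00000115232, plus strand, chr2:181457202-181536187) was 1508 and 1076 in untreated cells, 2085 and 196 in BOR, 1426 in VEM and 1791 in VEM+BOR. BOR 1 was the highest library and BOR 2 the lowest, a ratio of 10.6. The BOR change of -0.99 (SE 1.07, adjusted p = 0.968) thus averages opposite values: it was 0.71 without BOR 2 and -2.69 without BOR 1, and the latter passed (adjusted p = 0.000834). In that fit of BOR 2 alone 26.1% of all genes passed. The changes were 0.16 in VEM (SE 0.37, adjusted p = 1) and 0.48 in VEM+BOR (SE 0.37, adjusted p = 1).

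ITGA5 (ENSG00000161638, minus strand, chr12:54395261-54419460) was 2196 and 1710 in untreated cells, 2337 and 6258 in BOR, 2253 in VEM and 2012 in VEM+BOR. BOR 2 stood far above the other 5 libraries, which lay between 1710 and 2337. The change was 0.98 in BOR (SE 0.59, adjusted p = 0.968). It was 0.27 without BOR 2 and 1.69 without BOR 1, which leaves BOR 2 alone. In VEM it was 0.21 and in VEM+BOR 0.04 (SE 0.37 in each, adjusted p = 1 in each). ITGB1, the beta chain shared by alpha 4 and alpha 5, was 4020 and 3264 untreated, 4571 and 719 in BOR, 4856 in VEM and 5278 in VEM+BOR. It was named after its values were seen. In BOR 2, then, ITGA4 and ITGB1 were low while ITGA5 was high.

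**Figure D3:**
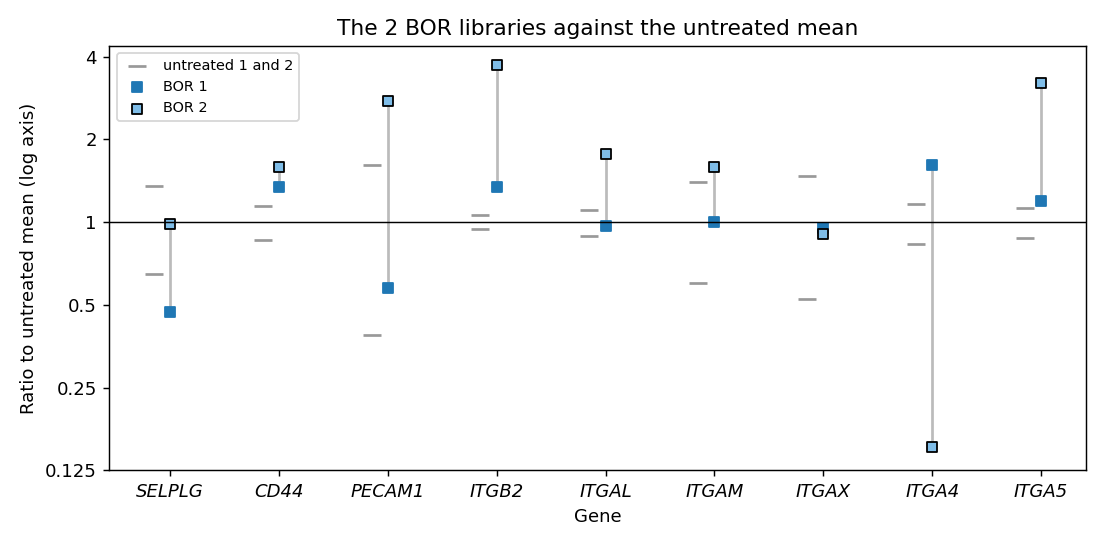
Ratio of each BOR library to the untreated mean (log axis) for the 9 genes, with the untreated libraries as grey dashes. The BOR libraries lie together for ITGAX and CD44, and on opposite sides of the untreated mean for ITGA4, at 1.61 and 0.152.

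CD44 was second to ITGB2 per kilobase in untreated cells, and it had the smallest range of the 9 genes in normalised reads, the highest library being 2.16 times the lowest. CD44 (ENSG00000026508, plus strand, chr11:35138870-35232402) was 5600 and 4213 in untreated cells, 6566 and 7768 in BOR, 8011 in VEM and 9109 in VEM+BOR. All 4 treated libraries lay above both untreated libraries on this scale. In CPM, BOR 2 at 310.5 lay between the untreated libraries at 363 and 238, while VEM at 504 and VEM+BOR at 541.5 stayed above them. The change was 0.56 in BOR (SE 0.45, adjusted p = 0.968), 0.72 in VEM (SE 0.42, adjusted p = 1) and 0.89 in VEM+BOR (SE 0.42, adjusted p = 1).

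SELPLG, the PSGL-1 gene, rested on few reads. SELPLG (ENSG00000110876, minus strand, chr12:108622277-108633959) had 20 and 38 reads in untreated cells, 14 and 20 in BOR, 8 in VEM and 7 in VEM+BOR. The exact Poisson 95% interval of the VEM count was 3.45 to 15.8 reads, which overlapped that of untreated 1, at 12.2 to 30.9, and not that of untreated 2, at 26.9 to 52.2. These intervals cover counting error only. In normalised reads the VEM-treated libraries, at 7.37 and 6.42, lay below both untreated libraries, at 17.8 and 37.3. The change was -1.69 in VEM (SE 0.89, adjusted p = 1), -1.87 in VEM+BOR (SE 0.90, adjusted p = 1) and -0.43 in BOR (SE 0.80, adjusted p = 0.968).

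PECAM1 was scarcer still. PECAM1 (ENSG00000261371, minus strand, chr17:64319415-64413776) had 32 and 7 reads in untreated cells, 11 and 36 in BOR, 5 in VEM and 30 in VEM+BOR. The untreated libraries differed 4.14 times and the BOR libraries 4.78 times in normalised reads. The change was -1.45 in VEM (SE 1.07, adjusted p = 1), 0.90 in VEM+BOR (SE 0.93, adjusted p = 1) and 0.63 in BOR (SE 1.07, adjusted p = 0.968). In VEM the change was -2.39 without untreated 2 and -0.49 without untreated 1. PECAM1 also marks endothelium, whose genes CDH5 and KDR were not among the genes found in all tables, and VWF and TEK had at most 4.44 normalised reads.

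**Figure D4:**
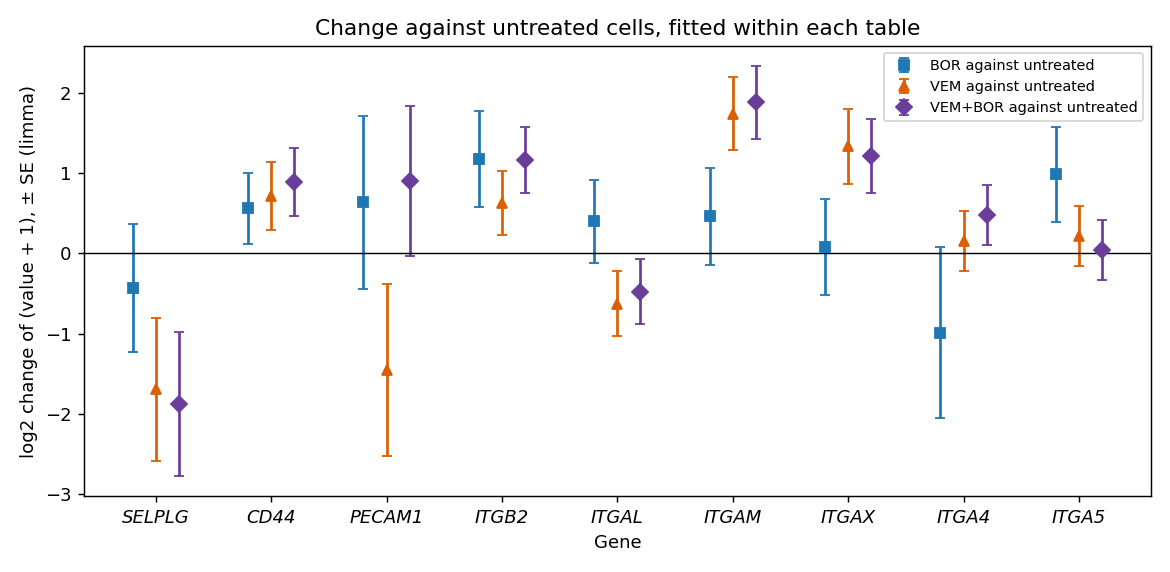
Change against untreated cells as log2 of value + 1, with SE from limma, for the 9 genes in the 3 comparisons. ITGAM at 1.74 and 1.88 and ITGAX at 1.33 and 1.22 are highest in VEM and VEM+BOR, SELPLG at -1.69 and -1.87 is lowest, and no gene passed the threshold.

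By direction, 5 of 9 members lay above both untreated libraries in VEM (ITGAM, ITGAX, ITGB2, ITGA5 and CD44) and 3 below (SELPLG, ITGAL and PECAM1). Over all genes these shares were 30.3% and 27.6%. In VEM+BOR 5 lay above (ITGAM, ITGAX, ITGB2, ITGA4 and CD44) and 2 below (SELPLG and ITGAL), where 30.1% and 27.9% of all genes did. In BOR both libraries lay above both untreated ones for 3 members (ITGB2, ITGA5 and CD44) and below for 0, against 11.7% and 8.24% of all genes. The median change of the 9 was 0.46 in BOR, 0.21 in VEM and 0.89 in VEM+BOR, and the median over all genes tested was 0.04, 0.00 and 0.01.

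Genes that work with these receptors were read from 7 lists with 80 genes tested. In limma 0 of 80 passed in BOR, VEM or VEM+BOR, where 0%, 0.0446% and 0.192% of all genes passed. At an unadjusted p under 0.05 the counts were 0, 5 and 6 of 80, against 0.247%, 2.54% and 3.01% of all genes. On recovered reads edgeR and DESeq2 also called 0 in BOR and 0 in VEM+BOR. Of all genes, edgeR called 0% and 0.556% there, and DESeq2 called 0.226% and 0.409%. As above, 30.3%, 30.1% and 11.7% of all genes lay above both untreated libraries in VEM, VEM+BOR and BOR, and 27.6%, 27.9% and 8.24% below, which is the background for the counts of each list. Of 14 other integrin subunits tested, 6 lay above both untreated libraries in VEM, 5 in VEM+BOR and 1 in BOR, and 1, 2 and 1 lay below. Among them ITGA9 was 297 and 143 untreated, 415 and 218 in BOR, 351 in VEM and 445 in VEM+BOR (change 1.09 in VEM+BOR, adjusted p = 1). The collagen receptor genes ITGA1 and ITGA2 and the laminin receptor gene ITGA6 were each lowest in BOR 2, at 31.1, 18.9 and 39.2, against 169 or more, 75.0 or more and 188 or more elsewhere. Of 19 regulators of integrin activation, 5 lay above both untreated libraries in VEM, 9 in VEM+BOR and 1 in BOR, and 3, 2 and 0 lay below. Their median change was 0.13, 0.13 and 0.11 in BOR, VEM and VEM+BOR. APBB1IP, which encodes the RAP1 effector RIAM, was 1413 in BOR 2 and 172 to 368 elsewhere, FYB1 was 9.46 in BOR 2 and 62.7 to 236 elsewhere, and SKAP2 was 201 in BOR 2 and 607 to 972 elsewhere. TLN2 ranged from 138 to 287.

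Of 12 integrin counter-receptors and junction molecules, 9 lay above both untreated libraries in VEM, 6 in VEM+BOR and 4 in BOR, and 2, 2 and 1 lay below. ICAM1, a ligand of LFA-1 and Mac-1, was 664 and 408 untreated, 518 and 2542 in BOR, 974 in VEM and 966 in VEM+BOR. Its change was 0.90 in VEM and 0.88 in VEM+BOR (adjusted p = 1 in each) and 1.14 in BOR (adjusted p = 0.968). ALCAM was 200.1 in BOR 2 and 1246 to 1729 elsewhere, JAM2 ranged from 25.5 to 142 and ICAM3 from 149 to 331. Of 12 enzymes that build selectin ligands, 8 lay above both untreated libraries in VEM, 5 in VEM+BOR and 1 in BOR, and 2, 2 and 1 lay below. GCNT1, the core 2 branching enzyme that PSGL-1 needs to bind selectins, was 217 and 182 untreated, 370 and 132 in BOR, 387 in VEM and 571 in VEM+BOR. Its change of 1.50 in VEM+BOR had the lowest adjusted p of that list, 0.319. Its neighbours C1GALT1, TPST1 and CHST2 had changes in VEM+BOR of 0.56, 0.05 and 0.38 (adjusted p = 1 in each).

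Of 9 CD44 partners and cortical linkers tested, 4 lay above both untreated libraries in VEM, 6 in VEM+BOR and 2 in BOR, and 2, 3 and 0 lay below. MMP9, a protease that docks on CD44, was 41.7 and 165 untreated, 121 and 794 in BOR, 92.2 in VEM and 243 in VEM+BOR. HMMR and RDX were low in BOR 2, at 33.8 and 105, against 1294 or more and 582 or more elsewhere, and HAS3, a hyaluronan synthase gene, was 825 in BOR 2 and 75.2 to 120 elsewhere. Of 5 sheddases, 3 lay above both untreated libraries in VEM, 3 in VEM+BOR and 1 in BOR, and 2, 1 and 0 lay below. ADAM9 was 671 and 585 untreated, 1117 in VEM and 1284 in VEM+BOR (change 1.02, adjusted p = 0.884), and 718 and 79.8 in BOR. ADAM10 was 269 in BOR 2 and 1491 or more elsewhere, ADAM17 lay between 489 and 1061 and ADAM8 between 124 and 299. Of 9 tetraspanins, which organise integrins in the membrane, 0, 1 and 0 lay above in VEM, VEM+BOR and BOR, and 3, 4 and 1 lay below. TSPAN32 was 606 and 469 untreated, 462 and 142 in BOR, 371 in VEM and 254 in VEM+BOR. Its change was -1.05 in BOR (adjusted p = 0.968) and -1.08 in VEM+BOR (adjusted p = 0.997). In VEM+BOR, CD9, CD37 and TSPAN33 had changes of 0.11, -0.43 and -0.57 (adjusted p = 1 in each).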

How the data were processed

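Per the labels' protocols, poly-A RNA was primed with random hexamers, with no strand-marking step named, and read in 150 bp pairs. The submitters' processing notes name CASAVA and list HISAT2 (2.0.5), the counter featureCounts (1.5.0-p3) and, for statistics packages, edgeR (3.22.5) and DESeq2 (1.20.0), without saying how each was used. No genome build is stated there, and the coordinates of all 9 members equal GENCODE 29 (GRCh38), whose exon union equals their gene length.

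The authors deposited 3 tables, each with 1 treated group and the untreated libraries, as a normalised signal (read counts divided by 1 factor per library), with their own log2 fold changes and deposited p-values. All values were whole multiples of a step per column within 0.001, which gave the reads back (100% whole). Groups follow the treatment labels, and replicate numbers follow accession order.

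The test was limma 3.58.1 (R 4.3.3, trend, two-sided) on log2 values with a pseudocount of 1. Genes needed a mean of 10 or more, and the threshold was an adjusted p (Benjamini-Hochberg) of 0.05. It had 2 residual degrees of freedom in BOR and 1 in the others. The prior degrees of freedom, from spread pooled over genes, were 4.20 in BOR, 18.0 in VEM and 19.7 in VEM+BOR. Levels use 23519 genes in all tables, on median-of-ratios factors. Named genes were all members and, of each of 7 lists, up to 4 genes with a mean of at least 50 and the largest absolute change in any comparison. Members and lists were chosen with earlier results of these data known. The test was tried on simulated counts. Alternatives were another pseudocount, no filter, TMM, library totals, all 6 libraries in 1 fit, edgeR 4.0.16, DESeq2 1.42.0 and each replicate left out. No count test used VEM. One marker result is not reported here.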

Additional observations from a re-analysis of the deposited data

How the results depend on the processing

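Of 279 member changes under alternatives, 255 kept direction and side of the threshold, 9 newly passed and 15 turned direction, 11 of those in BOR. The 255 include SELPLG and PECAM1 in VEM+BOR under DESeq2, which had no adjusted p. No member changed direction in VEM except ITGA4, or in VEM+BOR except ITGA5 and PECAM1. The cause was not tested. Some alternatives could not add a turn. Leaving out the filter keeps every member change of the main fit. In VEM and VEM+BOR, leaving out BOR 1 or BOR 2 keeps that of the fit of all 6 libraries. These count among the 255, so that number overstates how far directions were tried. ITGAX in BOR turned to -0.19 in edgeR, -0.12 in DESeq2 and -0.22 with library totals, and ITGA5 in VEM+BOR to -0.0019 in edgeR. With 1 replicate left out, the BOR changes ran from -0.96 to 0.088 for SELPLG, -0.14 to 1.06 for ITGAM, -0.66 to 0.82 for ITGAX, -0.034 to 0.83 for ITGAL, -2.69 to 0.71 for ITGA4 and -0.44 to 1.71 for PECAM1. They ran from -0.081 to 0.41 for ITGA4 in VEM, and from -0.13 to 0.23 for ITGA5 and -0.044 to 1.86 for PECAM1 in VEM+BOR. For VEM and VEM+BOR these fits took in all other libraries, and a lone library is assumed to vary like the other groups. Without an untreated library, the BOR pair alone gave the residual spread.

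Genes past the threshold numbered 0 in BOR, 7 in VEM and 30 in VEM+BOR. With 1 replicate left out they ran from 0 to 4008, 0 to 17 and 0 to 50, the highest each time without BOR 1. In VEM and VEM+BOR the lowest count came without an untreated library, where the spread rested on the BOR pair, which lay far apart. With no filter 0 passed in VEM and 0 in VEM+BOR, as did 0 and 0 with all 6 libraries in 1 fit. Library totals gave 40 in VEM and 89 in VEM+BOR. In VEM+BOR TMM gave 51, edgeR 87 and DESeq2 64, and DESeq2 gave 35 in BOR. Library totals moved the median change of all genes in BOR from 0.04 to -0.26. Depth limits SELPLG and PECAM1, with 38 reads or fewer in any library. No paired analysis was possible because the replicate numbers follow accession order and the labels pair no libraries.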

Other observations

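ITGB2 is overlapped on the opposite strand by the antisense RNA gene ITGB2-AS1, which shares 303 bases, or 4.46%, of its exon length. ITGB2-AS1 had 9 and 4 reads in untreated cells, 13 and 84 in BOR, 47 in VEM and 81 in VEM+BOR. It thus had more reads in BOR 2, VEM and VEM+BOR than in both untreated libraries, where ITGB2 was higher too. For BOR 1, 13 reads against 9 in untreated 1 are too few to place it above. The protocol names no strand marking, so reads in the shared bases cannot be given to one gene or the other. ITGB2 had 3824 reads or more in every library. ITGAL is overlapped on the opposite strand as well, and the same limit holds for it. AC116348.3 shares 415 bases, or 6.41%, of its exon length, and AC116348.2 shares 204 bases, or 3.15%. Neither was among the genes found in all tables. The largest such share was 0.63% for ITGA5 and 0.84% for CD44.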
